A study of Mus musculus with 24 samples.

Results

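Krüppel-like factors are zinc-finger transcription factors that bind CACCC boxes and related GC-rich sites in promoters and enhancers. The 10 members described here were Klf1, Klf2, Klf3, Klf4, Klf5, Klf6, Klf9, Klf10, Klf13 and Klf15, taken as listed symbols from a table of 27179 mouse genes. All 10 were in the table, and all 10 passed the filter on low values that left 25680 genes for testing. The quantity measured was H3K4m3, histone H3 trimethylated at lysine 4, a promoter mark of genes that are active or poised. H3K4m3 is not a measure of RNA, and reads of a gene stand for the mark on chromatin summed over all cells of the organ piece.

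Brain, heart, kidney and liver were harvested from mice and either flash frozen or fixed in formalin and embedded in paraffin (FFPE). The sources used here give no strain, genotype, age or sex, and do not say how many mice were used. The values used here came as 8 columns, 1 for each organ and preservation type, called libraries below, so that each organ has 2 libraries and each preservation type has 4. The columns name no antibody and were taken as H3K4m3 from the title of the series. Whether an FFPE column holds 1 or both of the FFPE samples described for its organ is not stated, and the input libraries were not analysed here, so no value has an input background taken off. Frozen cores and FFPE pieces were turned into sheared chromatin by different procedures, so preservation and preparation cannot be told apart. The labels also name kits of 2 makers for the libraries and do not tie a kit to a sample, so a kit difference cannot be told apart from preservation either. A value is the log2 of normalised CPM (reads scaled to library size), called the log2 level. Depth ran from 1792394 reads in frozen heart to 5275085 in FFPE kidney, and the 10 members held between 72 and 1021 reads in a library. Markers of the labelled organ were higher in that organ than in the mean of the other 3 for 8 of 10 brain, 6 of 10 heart, 9 of 10 kidney and 10 of 10 liver markers. Without the frozen library of the organ these counts were 3, 0, 0 and 6. The median log2 level over tested genes was 4.28 in frozen liver and between 4.48 and 4.61 in the other 7 libraries.

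The family divides by function. Klf2 and Klf4 are the shear-stress factors of the endothelium, where fluid flow induces them through the Mek5-Erk5-Mef2 cascade, and Klf4 is also one of the factors used to reprogram cells to pluripotency. Klf6 is a broadly expressed, injury-induced member, and Klf5 promotes growth of epithelium and of smooth muscle. Klf1 drives globin and other red-cell genes, and Klf3 represses many of the same kind of CACCC sites with the corepressor CtBP. Klf9 responds to glucocorticoid and thyroid hormone, Klf13 is its close relative, and Klf10 is induced by transforming growth factor beta. Klf15 is a metabolic factor of liver, muscle and kidney that acts on amino acid breakdown and glucose production.

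Organ differences were tested with limma in 1 model of organ and preservation over the 8 libraries, setting each organ against the average of the remaining 3, with p-values adjusted by Benjamini-Hochberg over all 25680 genes and a threshold of 0.05. Of the 10 members, 5 differed among the 4 organs by the F test, against 14.4% of all tested genes and 19.1% of the 10592 genes with a mean log2 level of at least 5. These were Klf4 (adjusted p = 8.92e-05), Klf2 (0.000186), Klf15 (0.000984), Klf6 (0.00885) and Klf5 (0.0318). The adjusted p was 0.205 for Klf1, 0.402 for Klf13, 0.456 for Klf3, 0.694 for Klf10 and 0.973 for Klf9. Without the frozen heart library 3 members passed, Klf2, Klf4 and Klf15, and the same 3 passed when each column was centred on its median. Because the labels do not say that libraries come from separate animals, the p-values reflect only how these libraries vary, and that variation may be technical.

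**Figure D1:**
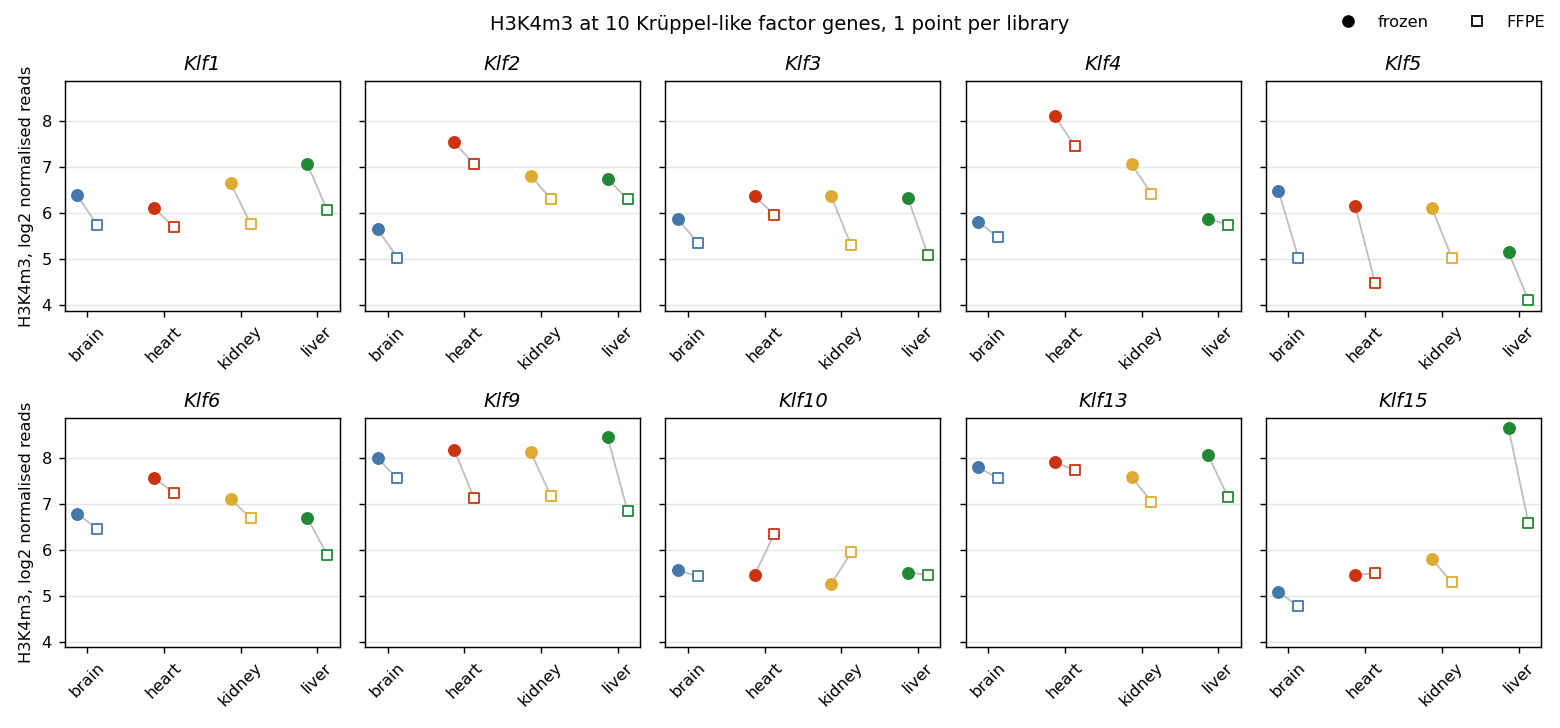
H3K4m3 level (y axis, log2 normalised CPM) of each of the 10 members in brain, heart, kidney and liver (x axis), with 1 filled circle for the frozen and 1 open square for the FFPE library, joined by a line. Klf2 and Klf4 are highest in heart and lowest in brain in both preservation types, and Klf15 is highest in liver, at 8.65 in frozen and 6.58 in FFPE tissue.

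The mark measured here sits at promoters, and 4 of these are shown before the values. Those of Klf2, Klf4 and Klf15 belong to the 3 members with the largest organ differences, and that of Klf1 is shown because it has few CG dinucleotides beside the others. The windows are RefSeq sequence of GRCm38.p6, the build that mm10 denotes, and 8 of the 10 members matched an entry. Printed are the 250 bases before the listed start, 5′ to 3′ on the gene's strand. Klf2 (chr8:72318812-72319061, plus strand) has in capitals a Mef2-type motif (CTA, any 4 bases, TAG), whose first base lies 118 bases before the start. Klf4 (chr4:55532476-55532725, minus strand) has in capitals a run that holds TATAA, a general core-promoter motif, on both strands, beginning 32 bases before the start. Klf15 (chr6:90462326-90462575, plus strand) has in capitals 2 E-boxes, CACGTG, the motif bound by clock and other basic helix-loop-helix factors. Klf1 (chr8:84901732-84901981, plus strand) has in capitals the reverse complement of GATAA, the motif of the red-cell factor Gata1.
Klf2: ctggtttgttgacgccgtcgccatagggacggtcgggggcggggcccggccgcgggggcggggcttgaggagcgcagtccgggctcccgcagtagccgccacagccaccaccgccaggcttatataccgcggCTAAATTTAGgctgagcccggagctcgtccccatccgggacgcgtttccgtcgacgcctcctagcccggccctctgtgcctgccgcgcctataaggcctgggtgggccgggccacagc
Klf4: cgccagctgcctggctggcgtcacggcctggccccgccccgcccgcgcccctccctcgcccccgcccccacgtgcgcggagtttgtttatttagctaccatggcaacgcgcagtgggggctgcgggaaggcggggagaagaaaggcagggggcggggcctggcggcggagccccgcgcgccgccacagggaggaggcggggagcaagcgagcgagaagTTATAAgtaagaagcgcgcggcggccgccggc
Klf15: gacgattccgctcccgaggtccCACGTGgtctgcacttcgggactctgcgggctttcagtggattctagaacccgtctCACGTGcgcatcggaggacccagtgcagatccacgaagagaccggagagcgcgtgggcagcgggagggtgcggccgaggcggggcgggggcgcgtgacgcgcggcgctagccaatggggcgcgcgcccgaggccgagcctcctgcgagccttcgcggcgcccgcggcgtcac
Klf1: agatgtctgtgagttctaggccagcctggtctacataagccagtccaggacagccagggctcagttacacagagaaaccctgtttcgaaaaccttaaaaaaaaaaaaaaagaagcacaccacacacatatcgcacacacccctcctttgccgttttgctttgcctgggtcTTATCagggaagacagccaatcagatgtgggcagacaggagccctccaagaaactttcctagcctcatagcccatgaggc

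Searched on both strands over 32851 windows of 300 bases (250 before and 50 after a start), the Mef2-type motif was in 3.69% of windows, and among the 8 members only the Klf2 window held it. CACGTG was in 7.15% of windows. The Klf15 window held 3 of them, the third across the start and so outside the printed bases, and the Klf4 and Klf6 windows held 1 each. TATAA was in 24.9% of windows and among the members in those of Klf2 and Klf4, and GATAA was in 25.4% and among the members only in that of Klf1. The family's own box, CACCC, was in 57.5% of windows and in 6 of the 8 member windows, with 5 copies at Klf3 and 2 at Klf1. These are matches of letters, not binding sites. The windows also differed in CG dinucleotides, which mark CpG islands. The Klf15 window held 47, Klf4 40, Klf2 and Klf13 32 each, Klf3 29, Klf9 28 and Klf6 23, against a median of 7 over all windows. The Klf1 window held 3. The listed Klf15 start lies inside the interval that RefSeq gives the gene (chr6:90461043-90491803), and other starts of Klf15 were not examined.

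H3K4m3 at Klf2, Klf4 and Klf15 was lower in brain than in the mean of the other 3 organs. These were the 3 of 10 members that passed in brain, against 4.53% of all genes passing as lower and 5.53% as higher. By limma none of the 10 passed as higher in brain, and 1 had an unadjusted p under 0.05, Klf5 at 0.58 ± 0.21 (adjusted p = 0.118). An unadjusted p under 0.05 in either direction was found at 20.5% of all genes. Without the FFPE liver library, a fit that leaves liver with 1 library, the Klf5 difference in brain was 0.64. Klf2 (chr8:72319062-72321654) had a log2 level of 5.03 in FFPE brain and 5.65 in frozen brain, and between 6.31 and 7.54 in the other 6 libraries. Brain was thus the lowest organ for Klf2 in both preservation types. The difference was -1.46 ± 0.16 (SE) on the log2 scale, 2.74-fold lower (limma, adjusted p = 6.77e-05), and it was -1.38 within frozen and -1.53 within FFPE libraries. Klf4 (chr4:55527137-55532475) had levels of 5.47 in FFPE and 5.82 in frozen brain, 5.75 and 5.87 in liver, 6.42 and 7.06 in kidney, and 7.46 and 8.11 in heart, each FFPE first. Brain was lowest within each preservation type, but the frozen brain value lay above the FFPE liver value. The brain difference of Klf4 was -1.14 ± 0.17 (limma, adjusted p = 0.000643). Against liver alone Klf4 in brain did not pass, at -0.17 ± 0.21 (limma, adjusted p = 0.724). For Klf15 the brain difference was -1.28 ± 0.30 (limma, adjusted p = 0.0131), with brain again the lowest organ in both preservation types. By organ pairs Klf15 in brain was below liver, at -2.69 ± 0.37 (limma, adjusted p = 0.000298). It did not pass against heart (-0.55, limma, adjusted p = 0.543) or kidney (-0.62, limma, adjusted p = 0.509). The share of all genes with the lowest level in brain in both types was 11.6%.

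Of these 3 calls, that of Klf2 remained whichever library was left out, with the difference between -1.53 and -1.38. Without the frozen brain library the adjusted p was 0.0733 for Klf4 and 0.471 for Klf15, whose difference was then -1.02. Without the FFPE brain library it was 0.0566 for Klf15, with a difference of -1.55. In these fits the organ is left with 1 library, which is assumed to vary like the rest.

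In heart the endothelial pair and Klf6 were higher, and they were the 3 of 10 members that passed, against 1.72% of all genes passing as higher and 0.853% as lower. Klf2 had log2 levels of 7.06 in FFPE and 7.54 in frozen heart, and of at most 6.81 in the other organs. The Klf2 difference was 1.16 ± 0.16, 2.23-fold higher (limma, adjusted p = 0.00266). Against kidney alone Klf2 in heart did not pass, at 0.74 ± 0.20 (limma, adjusted p = 0.12). Klf4 was 3.29-fold higher, a difference of 1.72 ± 0.17 (limma, adjusted p = 0.00035), and heart was its highest organ in both preservation types. The Klf4 difference was the largest in heart among the members, at 1.86 within frozen and 1.58 within FFPE libraries. Klf6 (chr13:5861489-5870393) had levels of 7.24 in FFPE and 7.56 in frozen heart, against 5.89 to 6.69 in liver, 6.45 to 6.79 in brain and 6.69 to 7.10 in kidney. Heart was its highest organ in both preservation types, with a difference of 0.80 ± 0.17, 1.74-fold (limma, adjusted p = 0.0227). Against kidney alone Klf6 in heart did not pass, at 0.51 ± 0.20 (limma, adjusted p = 0.362). Klf3 was also highest in heart in both types, as were 9.08% of all genes, and its difference of 0.45 ± 0.21 did not pass (adjusted p = 0.329). Klf1 was lowest in heart in both types, as were 8.83% of all genes, with a difference of -0.38 ± 0.18 that did not pass (adjusted p = 0.35).

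The heart calls rest on both heart libraries. Without frozen heart, the shallowest library, none of the 3 passed, with adjusted p of 0.147 for Klf4, 0.2 for Klf2 and 0.32 for Klf6 at differences of 1.58, 1.18 and 0.90. In that fit 2 genes of the whole table passed. Without FFPE heart only Klf4 of the members passed, with adjusted p of 0.0604 for Klf2 and 0.226 for Klf6. The Klf6 call also failed without either brain or either kidney library, at adjusted p between 0.0598 and 0.0958, and with columns centred on their median (0.0804). The fitted difference of Klf15 in heart was -0.56 with all libraries and -0.86 without FFPE liver, a fit that leaves liver with 1 library.

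Genes that Klf2 and Klf4 are known to act on in endothelium were compared in the same way. Of 7 such genes, 5 were lower in brain and none higher, with a median difference of -1.12 against -0.01 over all genes. Caveolin 1 (Cav1), the coat protein of endothelial caveolae, was 3.73-fold lower in brain, and thrombomodulin (Thbd), an anticoagulant receptor, was 2.74-fold lower. In heart 4 of the 7 were higher and none lower, with a median of 0.96 against -0.04 over all genes. The count in brain was 3 without either brain library, and the count in heart was 1 without frozen heart and 2 without FFPE heart or frozen kidney. Thbd was 4.10-fold higher in heart (limma, adjusted p = 6.84e-05) and Cav1 3.21-fold higher (limma, adjusted p = 0.00126). Without the frozen heart library the adjusted p of Cav1 was 0.172. Nos3, the endothelial nitric oxide synthase and a classic target of Klf2, did not pass in brain (0.17 ± 0.20) or heart (0.44 ± 0.20). In liver Thbd was lower (-0.75 ± 0.16, limma, adjusted p = 0.00891) and Plpp3 higher (0.73 ± 0.21, limma, adjusted p = 0.0417). Without the frozen liver library these were 0.11 and 0.518, and Plpp3 also missed the threshold with no filter on low values (0.0572).

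Markers of endothelial cells moved with Klf2 and Klf4 in brain and heart. Of 12 endothelial markers, 8 were lower in brain and 9 were higher in heart, with none in the other direction and medians of -1.16 and 1.22. In brain 4 passed without frozen brain and 5 without FFPE brain, and in heart 4 passed without FFPE heart and none without frozen heart. Their summed level was 244 to 304 normalised CPM in brain, 364 to 536 in liver, 546 to 598 in kidney and 878 to 1003 in heart, and none of the 12 was at 0 reads in any library. None of the 12 passed in liver, where Klf4 was lower and Klf2 did not pass. In FFPE 3 of the 12 were higher and none lower, against 16.5% and 21.3% of all genes. Their median FFPE difference was 0.32, while Klf2 and Klf4 were lower in FFPE. Levels differed too, at 3.91 for Cdh5 and 4.75 for Pecam1, 2 of the passing markers, in frozen tissue. Klf2 was at 6.68 and Klf4 at 6.71 there. Among genes with a mean log2 level of at least 5, 44.7% passed as lower in FFPE and 7.39% as higher. The part of endothelial cell content in the Klf2 and Klf4 differences was not tested, and in these bulk samples fewer cells of a type and less mark per cell cannot be told apart. Immune markers moved less, with a median of -0.35 in brain, and 1 of 10 passed there and none in heart, kidney or liver. The 1 was Coro1a, which was higher in brain (1.66 ± 0.34), by 2.40 within frozen and 0.91 within FFPE libraries. Of 10 fibroblast and smooth muscle markers, the matrix proteoglycan genes Dcn and Lum were the 2 that passed as higher in heart. They did not pass without either heart library or without frozen kidney, at adjusted p of up to 0.422 and 0.613.

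Upstream of Klf2 and Klf4, the Mek5-Erk5-Mef2 genes gave few organ calls. Of 7 genes, Mef2c, a transcription factor of muscle, neurons and endothelium, was the 1 that passed in an organ, higher in brain (1.06 ± 0.25, limma, adjusted p = 0.0117) and lower in liver (-1.14 ± 0.25, limma, adjusted p = 0.00913). Brain is the organ in which Klf2 was lowest. Without the frozen brain library the Mef2c brain difference was 0.67 with adjusted p of 0.638, and without frozen liver the liver adjusted p was 0.0624. The kinase genes Map2k5 (Mek5) and Mapk7 (Erk5) did not pass in any organ.

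**Figure D2:**
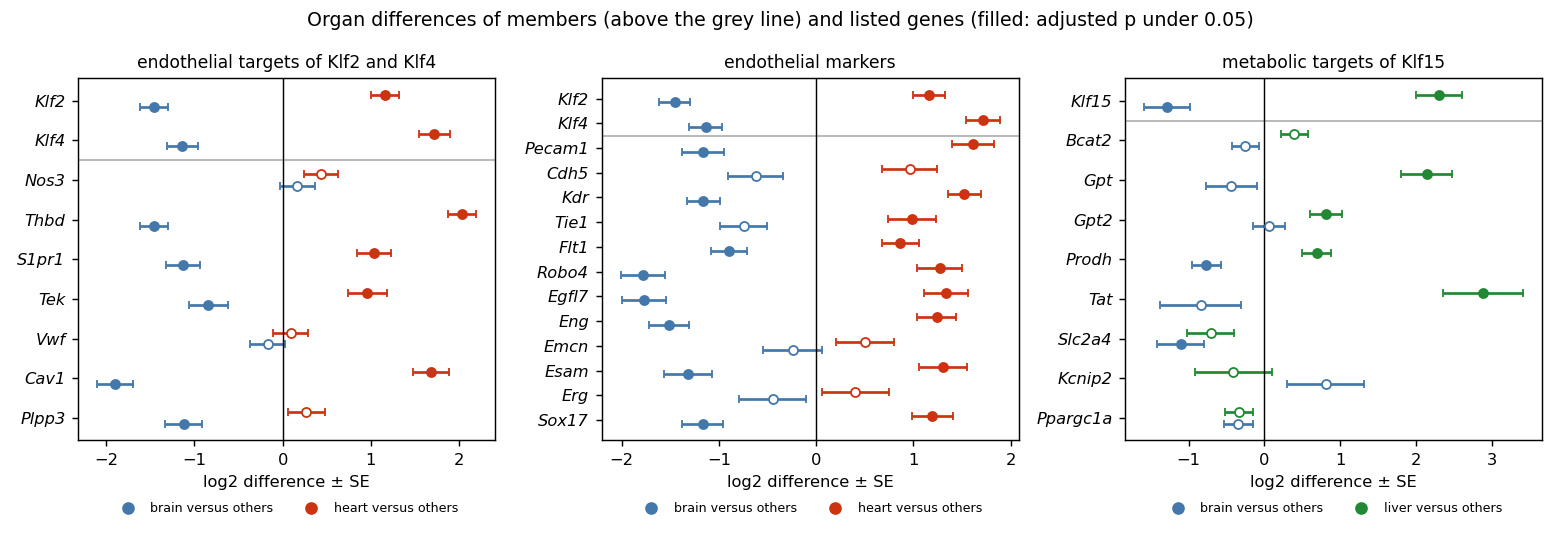
Organ difference (x axis, log2, organ minus the mean of the other 3, bars are SE) of Klf2, Klf4 and Klf15 above the grey line and of listed genes (y axis) below it, with filled points for adjusted p under 0.05. Klf2, Klf4 and most endothelial genes lie left of 0 for brain and right of 0 for heart, and Klf15, Gpt and Tat lie right of 0 for liver.

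In liver H3K4m3 was higher at Klf15 and lower at Klf4, Klf5 and Klf6. These 4 of 10 members passed, 1 higher and 3 lower, against 5.13% of all genes passing as higher and 4.84% as lower. Klf15 (chr6:90461043-90491803) had log2 levels of 6.58 in FFPE and 8.65 in frozen liver. In the other organs it was 4.77 and 5.08 in brain, 5.49 and 5.45 in heart, and 5.29 and 5.80 in kidney, each FFPE first. Liver was its highest organ in both preservation types, as at 13.7% of all genes. The frozen liver value rests on 1021 reads and the FFPE value on 409, and the counts elsewhere ran from 77 to 218. The difference was 2.30 ± 0.30, 4.93-fold higher (limma, adjusted p = 0.000475), the largest of any member in any organ. It was 3.20 within frozen and 1.40 within FFPE libraries, and it passed whichever library was left out, with adjusted p of at most 0.00978.

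Klf4, Klf5 and Klf6 were lower in liver than in the mean of the other organs, but not than in each of them. By organ pairs, Klf4 in liver was below heart and kidney and did not pass against brain (limma, adjusted p = 0.724). Klf5 was below brain, and did not pass against kidney (limma, adjusted p = 0.0699) or heart (0.151). Klf6 was below heart, and did not pass against kidney (limma, adjusted p = 0.145) or brain (0.382). Klf4 differed by -0.91 ± 0.17 (limma, adjusted p = 0.0043), although brain was lower still. Klf5 (chr14:99298691-99313412) had levels of 4.10 in FFPE and 5.15 in frozen liver, against 4.47 to 5.03 in FFPE and 6.11 to 6.48 in frozen libraries of the other organs. Liver was thus lowest within each preservation type, while the frozen liver value lay above the FFPE values of every organ. The Klf5 difference was -0.92 ± 0.21 (limma, adjusted p = 0.0139), on 73 reads in FFPE and 90 in frozen liver. Klf6 differed by -0.68 ± 0.17 (limma, adjusted p = 0.0176) and was also lowest in liver in both types, as were 10.7% of all genes. Klf1 was highest in liver in both types, as were 13.7% of all genes, and its difference of 0.51 ± 0.18 did not pass (adjusted p = 0.0999).

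Several of these liver calls depend on a library. Without frozen liver the adjusted p was 0.0874 for Klf4 and 0.196 for Klf5, and without FFPE liver it was 0.0931 for Klf6 at a difference of -0.46. Without FFPE kidney Klf5 (0.0551) and Klf6 (0.0693) both missed the threshold. Klf5 further missed it without frozen brain (0.0586) or frozen heart (0.0562), and Klf6 without frozen kidney (0.0652), without FFPE heart (0.0501) and with columns centred on their median (0.117).

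Genes on which Klf15 acts were partly higher in liver as well. Of 8 metabolic targets 4 were higher in liver and none lower, with a median difference of 0.54 against -0.01 over all genes. The count was 1 without frozen liver and 2 without frozen brain, frozen heart or FFPE kidney. Gpt, an alanine aminotransferase, was 4.41-fold higher (limma, adjusted p = 0.00136), and Tat, the tyrosine aminotransferase, was 7.40-fold higher (limma, adjusted p = 0.00356). Gpt2 and the proline oxidase gene Prodh were the other two. Gpt passed whichever library was left out. Without frozen liver, Tat had a difference of 1.21 and an adjusted p of 0.226. In brain, where Klf15 was lowest, 2 of the 8 were lower, Prodh and the glucose transporter gene Slc2a4, and without frozen brain neither passed, at adjusted p of 0.479 and 0.328. Slc2a4 was higher in heart and Ppargc1a in kidney, organs in which Klf15 did not pass. These 2 missed the threshold without any 1 of the brain, heart or kidney libraries, with adjusted p of up to 0.809 and 1. Liver markers moved with Klf15 too. The summed level of 10 liver markers was 1862 normalised CPM in frozen and 657 in FFPE liver, and 95.9 to 143 elsewhere, with none at 0 reads. Klf15 had the same order of frozen over FFPE liver.

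In kidney none of the 10 members passed, against 0.802% of all genes as higher and 0.405% as lower. By limma 1 member, Klf13, had an unadjusted p under 0.05, as did 9.66% of all genes. Klf13 (chr7:63886351-63938915) had levels of 7.05 in FFPE and 7.58 in frozen kidney, the lowest of the 4 organs in each type, as at 4.81% of all genes, with a difference of -0.38 ± 0.17 (adjusted p = 0.491). The FFPE kidney value of 7.05 was close to the 7.14 of FFPE liver. The Klf15 difference in kidney was -0.46 with all libraries and -0.76 without the FFPE liver library, a fit that leaves liver with 1 library.

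**Figure D3:**
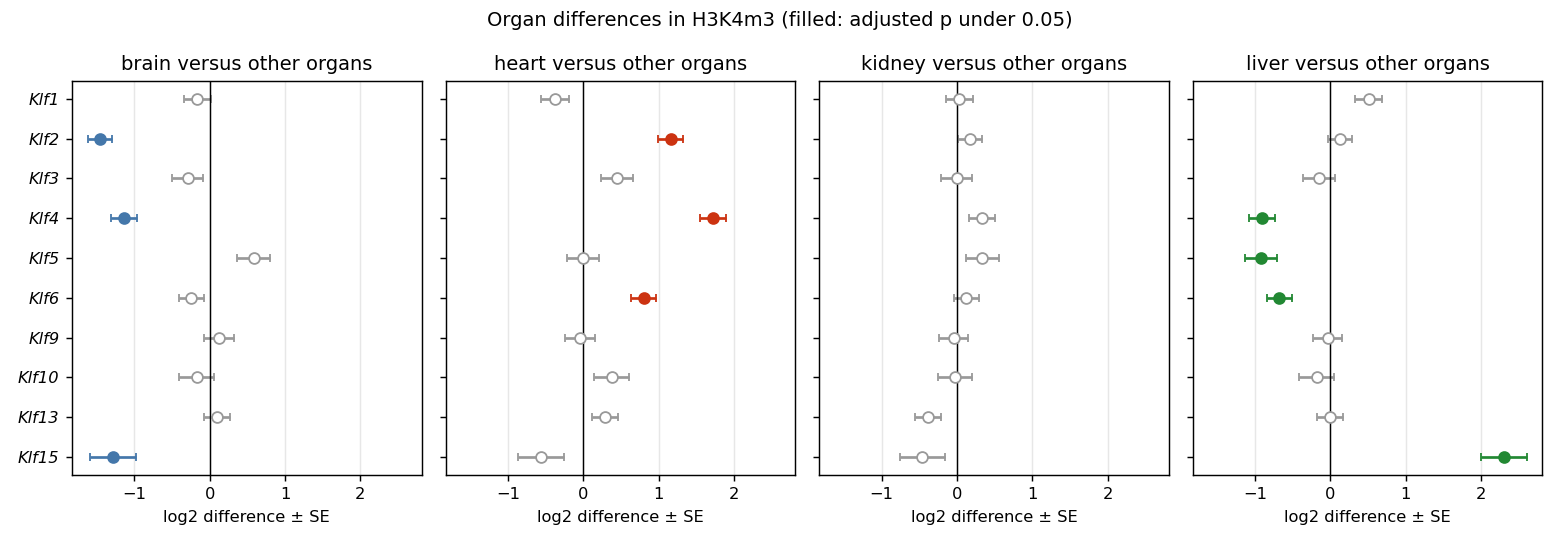
Organ difference of each member (x axis, log2, organ minus the mean of the other 3, bars are SE), 1 panel per organ, with filled points for adjusted p under 0.05. Filled points are Klf2, Klf4 and Klf15 in brain, Klf2, Klf4 and Klf6 in heart, Klf4, Klf5, Klf6 and Klf15 in liver, and none in kidney.

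**Figure D4:**
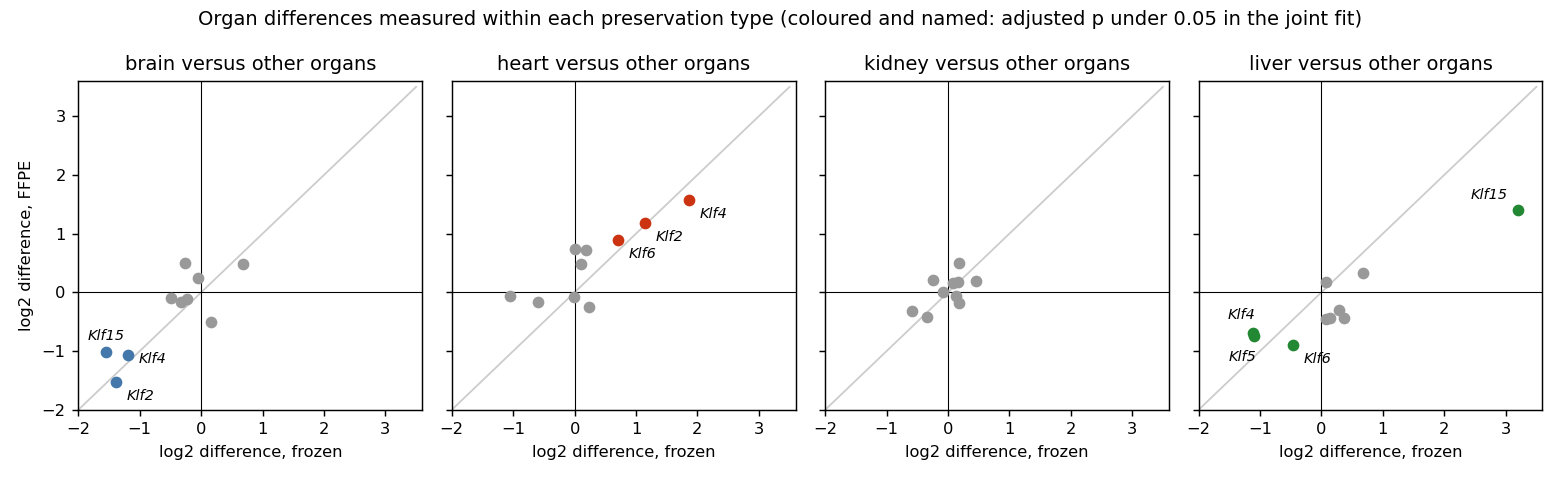
The same organ differences measured within the 4 frozen libraries (x axis, log2) and within the 4 FFPE libraries (y axis, log2), 1 point per member, with equal values on the grey diagonal. The 10 coloured calls have 1 sign in both preservation types, and Klf15 in liver lies farthest from the diagonal, at 3.20 in frozen and 1.40 in FFPE.

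Ordered by organ, few neighbouring levels differed beyond their spread. Of 30 neighbouring pairs, 3 for each of the 10 members, 4 passed, and over all 60 organ pairs 15 passed. Among all genes, brain minus heart was called at 6.32% and brain minus kidney at 6.29%. The order for Klf2 was heart, kidney, liver, brain, and the step that passed was liver over brain, a difference of 1.19 ± 0.20 (limma, adjusted p = 0.00114). The step from heart to kidney was 0.74 ± 0.20 and did not pass (adjusted p = 0.12). Klf4 had the same order, and 2 steps passed, heart over kidney by 1.04 ± 0.21 (limma, adjusted p = 0.0342) and kidney over liver by 0.93 ± 0.21 (limma, adjusted p = 0.0271). Heart minus kidney was called at 0.962% of all genes and kidney minus liver at 3.32%. Klf15 ran from liver through kidney and heart to brain, and the step from liver to kidney passed at 2.07 ± 0.37 (limma, adjusted p = 0.00775). For Klf5 the order was brain, kidney, heart, liver and for Klf6 heart, kidney, brain, liver, with no neighbouring step passing. Their ends did differ, with Klf5 2.19-fold higher in brain than in liver (limma, adjusted p = 0.0101) and Klf6 2.16-fold higher in heart than in liver (limma, adjusted p = 0.00553). Brain minus liver was called at 12.9% and heart minus liver at 6.76% of all genes. Between 1 and 6 neighbouring steps passed when 1 library was left out, and 1 passed without frozen kidney.

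Klf1 and Klf3, the red-cell activator and its repressor counterpart, did not pass in any organ with all libraries. The Klf1 difference in liver was 0.51 with all libraries and 0.68 without FFPE liver, a fit that leaves liver with 1 library. Klf1 (chr8:84901982-84905291) had log2 levels of 5.74 and 6.39 in brain, 5.70 and 6.11 in heart, 5.77 and 6.66 in kidney, and 6.07 and 7.07 in liver, each FFPE first. Liver was highest and heart lowest in each preservation type, while organs overlapped when the types were pooled. Of 16 erythroid targets and partners of Klf1, 13 were in the table and 12 were tested, and 1 passed in an organ. It was Bcl11a, the repressor of fetal globin, which was lower in liver, and it did not pass without any 1 of 6 libraries (adjusted p of up to 0.597, without frozen liver), with precision weights (0.158) or with columns centred on their median (0.0569). The summed level of the 13 ran from 229 to 310 normalised CPM over the 8 libraries. Alas2, the red-cell enzyme of haem synthesis, came closest to a call in liver at 1.58 ± 0.48 (adjusted p = 0.0508). Klf3 (chr5:64803521-64832901) was between 5.10 and 5.96 in FFPE and between 5.87 and 6.37 in frozen libraries. Its 3 frozen values outside brain lay between 6.33 and 6.37, and frozen brain was at 5.87. Of 8 corepressors used by the family, Ctbp2, the partner of Klf3, was the 1 that passed in an organ, lower in liver (-1.12 ± 0.24, limma, adjusted p = 0.00891). It did not pass without frozen liver (adjusted p = 0.29).

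Klf9, Klf10 and Klf13 also passed in no organ. Klf9 (chr19:23141226-23168129) lay between 6.84 and 7.55 in FFPE libraries and between 7.99 and 8.45 in frozen ones. Liver was the lowest organ for Klf9 in FFPE and the highest in frozen tissue, so the organs had no shared order. The organ means of Klf9 differed by at most 0.12 between neighbours in their order. Klf10 (chr15:38291464-38300711) was between 5.25 and 5.56 in frozen libraries and between 5.42 and 6.35 in FFPE ones, with FFPE heart highest. Klf13 lay between 7.05 and 7.73 in FFPE and between 7.58 and 8.05 in frozen libraries. Glucocorticoid-responsive genes, the setting in which Klf9 and Klf15 are induced, gave 1 of 8 higher and 3 of 8 lower in brain and none elsewhere. The lower ones included Pdk4, a brake on glucose oxidation, and Tsc22d3, a mediator of glucocorticoid action, and the higher one was the clock gene Per1. Klf9 in brain differed by 0.12 ± 0.20, while Klf15 was lower. None of these 3 glucocorticoid-responsive calls passed without the frozen brain library, at adjusted p of 0.0858, 0.454 and 0.784. Without FFPE brain Pdk4 (0.0605) and Tsc22d3 (0.0502) missed the threshold as well, as did Per1 without frozen kidney (0.0629).

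Few organ calls came from the rest of the zinc-finger family, which was not matched to the members in level. Klf8 had a log2 level of 3.84 in brain, while Klf7 had 5.77 in liver. Mean levels of the members ran from 5.32 to 7.68. The members were chosen with earlier results of these data known, so the numbers of calls cannot be set against each other. Among all genes 4.84% passed as lower in liver. Of 7 other Klf genes, 1 passed in an organ, Klf7, a factor of neuronal growth, which was lower in liver (-0.69 ± 0.19, limma, adjusted p = 0.0359) and missed the threshold without any 1 of 7 libraries and with columns centred on their median (-0.59, adjusted p = 0.145). None of the 9 Sp genes, which encode the related GC-box factors, passed in any organ by limma, and an unadjusted p under 0.05 was found for 1 in brain, 2 in heart, 1 in kidney and 2 in liver. Over all genes that share was 20.5% in brain, 14.97% in heart, 9.66% in kidney and 22.1% in liver. Their median differences ran from -0.16 in liver to 0.13 in kidney.

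FFPE tissue had lower H3K4m3 than frozen tissue at 9 of the 10 members, and 8 of them were lower in all 4 organs, as were 26.6% of all genes. Among all genes 21.3% passed as lower and 16.5% as higher in FFPE, but among genes with a mean log2 level of at least 5, where 44.7% passed as lower and 7.39% as higher, a lower value was common. The members' median difference was -0.61, that of those high-level genes -0.39 and that of all genes 0.18. Klf5 was 2.50-fold lower in FFPE (-1.32 ± 0.19, limma, adjusted p = 0.000293), with differences of -1.46 in brain, -1.69 in heart, -1.08 in kidney and -1.05 in liver. Klf9 was 2.02-fold lower (-1.01 ± 0.17, limma, adjusted p = 0.000714), with differences of -0.43 in brain, -1.06 in heart, -0.95 in kidney and -1.61 in liver. Klf3 differed by -0.81 ± 0.18, Klf1 by -0.74 ± 0.16, Klf2 by -0.51 ± 0.14, Klf13 and Klf6 by -0.47 each, and Klf4 by -0.44 ± 0.15 (limma, adjusted p between 0.00285 and 0.0333). Klf15 was lower by a fitted difference of -0.71 ± 0.26 (limma, adjusted p = 0.0452). That difference was -2.07 in liver, -0.51 in kidney and -0.32 in brain, and it was 0.037 in heart. Klf10 was the member that did not pass (0.35 ± 0.20, adjusted p = 0.171).

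These preservation calls changed with quantile normalization, not with centring of the columns. With columns centred on their median, which moves the median of all genes from 0.18 to 0.039, the same 9 members passed as lower, with differences from -1.46 for Klf5 to -0.58 for Klf4. With quantile normalization, which moves the median of all genes from 0.18 to 0.015, Klf3, Klf5 and Klf9 still passed as lower, Klf10 passed as higher, and the 6 others did not pass. Klf13 then had a difference of 0.093, the opposite sign. Without either one of the kidney libraries the members that passed were Klf1, Klf3, Klf5 and Klf9. Klf4 missed the threshold without either brain or either heart library too, Klf2 without either brain library, and Klf13 without either liver library (adjusted p between 0.0581 and 0.137). Klf15 missed it without either brain or either liver library, with a difference of -0.26 without liver, and with no filter on low values (adjusted p = 0.0615).

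**Figure D5:**
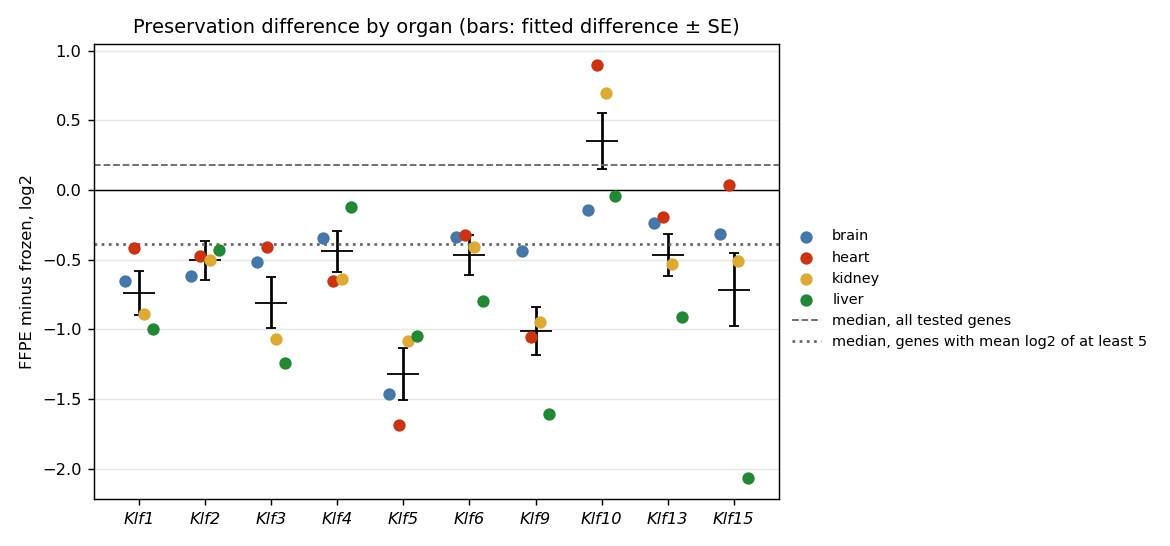
FFPE minus frozen difference (y axis, log2) of each member (x axis) in brain, heart, kidney and liver (points), with the fitted difference and its SE (bars) and the medians of all tested genes (dashed, 0.18) and of genes with a mean log2 level of at least 5 (dotted, -0.39). Klf1, Klf2, Klf3, Klf5 and Klf9 lie below the dotted line in all 4 organs, Klf10 lies above 0 in heart and kidney, and Klf15 in liver is at -2.07.

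Among related genes the preservation calls went in both directions. Of the 7 other Klf genes 3 were higher and 2 lower in FFPE, the lower ones being Klf7 (-0.88 ± 0.17) and Klf16 (-0.62 ± 0.15). Klf16 did not pass with quantile normalization (adjusted p = 0.344) or without either kidney library (0.0525 and 0.054). Of the 9 Sp genes 3 were higher and 1 lower, Sp3 at -0.97 ± 0.15. Of the 8 corepressors 3 were lower and none higher, among them Hdac2 at -0.90 ± 0.17. Of the 12 tested erythroid genes 4 were higher and none lower, among them Slc4a1, the red-cell anion exchanger, at 1.20 ± 0.21, while Klf1 itself was lower. The mean log2 level in frozen tissue was 4.21 for Slc4a1 and 6.56 for Klf1. Among genes with a mean log2 level of at least 5, 44.7% passed as lower in FFPE and 7.39% as higher. Over all genes these shares were 21.3% and 16.5%. The part of level in the directions of these lists was not tested. Without either one of the kidney libraries, 1 of the other Klf genes, 0 of the Sp genes and 1 of the erythroid genes passed as higher, and 2 of the corepressors as lower.

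The 3 genes whose levels were most like those of Klf2 were Uba7 (0.992), Cav1 (0.991) and E130310I04Rik (0.987). These are Pearson r over the 8 libraries after the mean of each preservation type was taken off. The genes compared were the 3644 that passed the F test and have a symbol, so all of them already differed among organs. For Klf15 the 3 most alike were Hpgd (0.999), Ahsg (0.997) and Il22ra1 (0.997), of which Ahsg encodes a plasma protein made by liver. For Klf4 they were Gm5144, Chrnb1 and Adamts5 (0.988 to 0.989), for Klf5 Arl2bp, Tpbg and A130050O07Rik (0.976 to 0.981), and for Klf6 Slk, Gm10400 and 4833419F23Rik (0.965 to 0.984). Among the members, Klf4 and Klf6 had an r of 0.88, Klf2 and Klf4 0.835, and Klf5 and Klf15 -0.944. The 8 points share 4 organs and were picked as the best of many genes, so these values are descriptions.

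Some members have neighbours that could share their reads. By RefSeq, Klf3 overlaps Gm38457 by 5660 bases and Gm31684 by 2913, Klf10 overlaps Gm35248 by 1965, Klf13 overlaps Gm27252 by 4154 and E030018B13Rik by 3683, and Klf9 holds Mir1192. Of these overlapping genes, E030018B13Rik and Mir1192 have values among the genes used here, and the Gm genes have none. The noncoding gene Gm12506, also without values, begins 235 bases from Klf4. Near Klf1 without overlap lie Gm39213, at 1831 bases, and Dnase2a, at 3464. In the same way 1700016G22Rik lies 3397 bases from Klf6 and 2410080I02Rik 4115 bases from Klf9. Immunoprecipitated DNA carries no strand, and how the authors assigned reads over shared bases is not stated in the labels. Klf2, Klf5 and Klf15 have no annotated gene within 5000 bases.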

How the data were processed

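The authors deposited 1 table of normalized log2 values per gene, and the submitters' processing notes name Bowtie2, featureCounts, limma and build mm10. Tool versions and the counted part of a gene are not stated there. The values equal log2 of the reads plus 0.5 over a scaled library size, and whole reads came back within 0.001 for 100% of values. Genes with a mean log2 value of at least 0 were tested with limma 3.58.1 in R 4.3.3 (empirical Bayes with an intensity trend, organ plus preservation, 3 residual degrees of freedom). The script was tested on simulated data. Members, gene lists and motifs were chosen with earlier results of these data known. Named were all members, of each list and comparison up to 2 passing genes with the smallest p and the gene farthest against the list's median (not all are printed), and the 3 genes most like each member that passed the F test. Other list genes were named after their values were seen. Alternatives were other scalings, filters, priors, precision weights and leaving out each library. Coordinates are from RefSeq GRCm38.p6.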

Additional observations from a re-analysis of the deposited data

Results flagged for a closer look

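Among the 4 frozen libraries, Klf3 in brain stood apart from the rest, with a gap to the nearest value of 0.928 of the whole range, and chance alone marks about 1 in 20 such groups. The FFPE minus frozen difference of Klf10 was -0.14 in brain and -0.043 in liver but 0.90 in heart and 0.69 in kidney, so organs differed in sign. For Klf15 it was -0.32 in brain, 0.037 in heart, -0.51 in kidney and -2.07 in liver. With 1 library per organ and preservation type, these differences between organs were not tested.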

How the results depend on the processing

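No paired analysis was possible because the columns carry no replicate numbers to pair by, but the organ term already compares FFPE with frozen tissue within each organ. Of the single-gene values under an alternative, 657 kept their direction and their side of the threshold, 140 kept the direction but no longer passed, 6 values without a test moved by more than their spread and 1 turned sign, Klf13 in FFPE against frozen, at 0.093 with quantile normalization. Of the counts of members that passed, 81 stayed within 1.5 times and 17 did not. Centring each column on its median left 3 members passing the F test and 2 neighbouring steps passing, and quantile normalization left 4 passing between FFPE and frozen. Leaving out 1 library at a time gave 3 to 5 members for the F test, 1 to 4 in brain, 0 to 4 in heart, 0 to 1 in kidney, 2 to 4 in liver, 4 to 8 between FFPE and frozen, and 1 to 6 neighbouring steps. The causes of these changes were not tested, and leaving out a library also leaves fewer samples. The model has no term for a preservation difference that varies by organ, so such variation enters the spread.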
